A study of Mus musculus with 242 samples.

Results

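Genes of the heat shock response were followed in the livers of female B6C3F1 mice that had been given one of 26 chemicals or a vehicle for 13 weeks. They were Hspb1, Hspa1a, Hspa1b, Hspa8, Hsp90aa1, Hsph1, Dnajb1, Hspd1, Hspe1 and Serpinh1, that is 10 of the 18193 genes measured, and they were taken by name. Where several probe sets of the array named the same gene, the one with the highest mean signal over all arrays stood for it. These were 1422943_a_at for Hspb1, 1452388_at for Hspa1a, 1452318_a_at for Hspa1b, 1455789_x_at for Hspa8, 1438902_a_at for Hsp90aa1, 1425993_a_at for Hsph1, 1416755_at for Dnajb1, 1426351_at for Hspd1, 1450668_s_at for Hspe1 and 1456733_x_at for Serpinh1. The genes are not all cytosolic: Hspd1 and Hspe1 form the chaperonin of mitochondria, and Serpinh1 is the collagen chaperone of the endoplasmic reticulum.

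Heat shock proteins hold, fold and refold other proteins. When unfolded protein accumulates, heat shock factor 1 binds heat shock elements, which are inverted repeats of the letters GAA, and raises transcription of Hspa1a, Hspa1b, Hsph1, Dnajb1, Hspb1 and others. Hspa8 and Hsp90aa1 are made in quantity by unstressed cells, and in mouse liver several of these genes also follow the daily rhythm of body temperature.

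The mice were 5 weeks old at the start and 18 weeks old when the liver was taken, and RNA of minced liver lobes was hybridised to 1 Affymetrix Mouse Genome 430 2.0 array per animal. A group had 3 to 5 mice, the 46 treated groups were set against 14 vehicle groups, and the 242 arrays carried run codes that place them in 4 runs, here called A, B, C and D. Gavage and inhalation exposures were given on 5 days a week and diets on 7, as the design text states. The labels do not name the vehicle group of each chemical, so it was taken from run, vehicle and animal numbers.

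In run A, 1,2-dibromoethane (62 mg/kg), benzene (100 mg/kg) and coumarin (200 mg/kg) were given by gavage and set against corn oil (CCO2). Also in run A, 2-chloromethylpyridine hydrochloride (250 mg/kg) and N-methylolacrylamide (50 mg/kg) were set against distilled water (WCO1). The run A diets held 2,2-bis(bromomethyl)-1,3-propanediol (1250 ppm), 4-nitroanthranilic acid (10000 ppm), diazinon (200 ppm) or malathion (14800 ppm), and their controls ate plain chow (FCO2). A further run A vehicle group, CCO3, is named like the corn oil groups but labelled distilled water. It served no treated group here and was compared with WCO1 as labelled. In run B, tetrafluoroethylene (1250 ppm) and tetrafluororethane (50000 ppm) were inhaled and set against air (ACO1), iodoform (93 mg/kg) and trichlorofluoromethane (3925 mg/kg) were set against corn oil (CCO4), and 1-amino-2,4-dibromoanthraquinone (20000 ppm) and tris(2,3-dibromopropyl)phosphate (1000 ppm) were fed and set against chow (FCO1). In run C, 2,3-benzofuran (240 mg/kg) was set against corn oil (CornOil). The run C diets held 1,5-naphthalenediamine (2000 ppm), N-(1-naphthyl)ethylenediamine dihydrochloride (2000 ppm) or pentachloronitrobenzene (8187 ppm), and their controls ate chow (RodentChow). Run D held the 5 dose series. Propylene glycol mono-t-butyl ether (25, 75, 300, 800 and 1200 ppm) and vanadium pentoxide (2 mg/m3) were set against air (ACO3), methylene chloride (100, 500, 2000, 3000 and 4000 ppm) and ethylene oxide (100 ppm) against air (ACO4), and naphthalene (0.5, 3, 10, 20 and 30 ppm) against air (ACO5). By gavage, 1,4-dichlorobenzene (100, 300, 400, 500 and 600 mg/kg) was set against corn oil (CCO5) and 1,2,3-trichloropropane (2, 6, 20, 40 and 60 mg/kg) against corn oil (CCO6).

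Signals are given on the linear scale of the deposited intensities, and differences as the treated minus the vehicle mean of log2(signal + 17.3), with their standard errors; this scale understates the change of dim genes. The RNA integrity number recorded for 217 arrays ran between 4.7 and 9.4, and the median signal of an array between 69.1 and 136. Transcripts that define liver were at the top of the range: the mean signals of Alb, Apoa1, Ttr, Cps1 and Cyp2e1 lay above the 99th percentile of all genes, and that of Ass1 at the 78.6th. In these bulk samples, fewer cells of a type and less RNA per cell cannot be told apart. The labels give each array its own animal, so the spread between arrays holds the spread between mice.

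RefSeq promoters of GRCm38.p6, each 250 bases before to 50 bases after a transcript's start, were in hand for 8 of the 10 genes and are shown for 4 of them, since the letters that heat shock factors read differ between the genes the results turn on. Capitals mark heat shock elements, searched on both strands as 3 units (GAANNTTCNNGAA or TTCNNGAANNTTC) or as 2 units (GAANNTTC or TTCNNGAA, which the longer motif contains). The Hspb1 window lies at chr5:135887669-135887968 on the plus strand and holds 2 short motifs. The Hsph1 window is at chr5:149636266-149636565 on the minus strand, with a short motif before the start and the long one just after it. The Hspe1 window is at chr1:55087898-55088197 on the plus strand, with overlapping long motifs. It shares them with an Hspd1 window whose start lies 216 bases away on the other strand. Hspd1 has 2 windows, and the other holds neither the long nor the short motif. The Hspa1b window is at chr17:34959189-34959488 on the minus strand, and 296 of its 300 bases are those of the Hspa1a window.
Hspb1: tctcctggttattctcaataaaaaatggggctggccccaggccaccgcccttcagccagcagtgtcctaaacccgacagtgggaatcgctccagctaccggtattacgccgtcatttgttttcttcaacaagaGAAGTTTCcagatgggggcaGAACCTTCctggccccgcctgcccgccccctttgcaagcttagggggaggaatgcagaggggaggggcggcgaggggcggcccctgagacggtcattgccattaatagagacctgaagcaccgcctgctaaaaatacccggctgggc
Hsph1: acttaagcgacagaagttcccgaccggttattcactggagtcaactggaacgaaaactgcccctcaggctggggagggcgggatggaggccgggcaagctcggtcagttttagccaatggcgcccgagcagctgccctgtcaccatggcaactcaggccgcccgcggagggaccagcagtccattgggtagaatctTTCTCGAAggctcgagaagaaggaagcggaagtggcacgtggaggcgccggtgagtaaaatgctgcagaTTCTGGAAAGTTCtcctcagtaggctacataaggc
Hspe1: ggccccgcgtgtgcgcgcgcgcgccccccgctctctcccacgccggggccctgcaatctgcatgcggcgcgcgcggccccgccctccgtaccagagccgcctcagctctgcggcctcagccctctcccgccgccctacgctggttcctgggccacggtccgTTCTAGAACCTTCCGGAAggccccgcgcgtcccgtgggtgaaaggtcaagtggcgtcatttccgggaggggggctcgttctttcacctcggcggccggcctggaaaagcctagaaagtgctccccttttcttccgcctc
Hspa1b: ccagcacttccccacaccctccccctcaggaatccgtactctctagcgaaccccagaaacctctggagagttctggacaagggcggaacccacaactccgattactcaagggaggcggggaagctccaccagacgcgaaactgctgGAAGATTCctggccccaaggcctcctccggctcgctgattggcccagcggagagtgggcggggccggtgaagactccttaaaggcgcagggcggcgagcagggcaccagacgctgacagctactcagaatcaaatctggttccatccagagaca

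The long motif was in 198 of 32851 promoter windows of the mouse genome (0.603%), among them windows of Hsph1, Hspd1 and Hspe1. The short motif was in 4946 (15.1%), among them windows of 6 of the 8 genes available here. The Dnajb1 and Serpinh1 windows held neither. A match describes the letters of the window and is not a measurement of binding.

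Over the 46 exposures, 4 differences of the heat shock genes were called. A gene was called where limma's p, adjusted over all 18193 genes of the comparison by the Benjamini-Hochberg method, was under 0.05 and the fold at least 1.5. Of 460 tests (10 genes in 46 comparisons), 4 were called, 1 higher and 3 lower, or 0.870%, against 0.751% of all gene tests, so the share was near the background. With dim genes left out before adjustment there were 9 calls of 456 tests, 1 higher and 8 lower (1.97%, against 1.64% of all gene tests). With second probe sets there were 4 calls, all of them higher (0.87%, against 0.548% of all gene tests). Hspb1 was higher after 2,3-benzofuran, Hsph1 was lower after 1,4-dichlorobenzene at 300 and at 500 mg/kg, and Serpinh1 was lower after naphthalene at 3 ppm. In 42 of the 46 comparisons no member was called. Without a correction, 75 tests (16.3%) had p under 0.05, against 10.4% of all gene tests, and 34 (7.39%) had groups that did not overlap, against 5.74%. For 279 of the 460 the 95% interval of the difference lay inside a 2-fold change in either direction, so the remainder were not bounded that tightly.

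**Figure D1:**
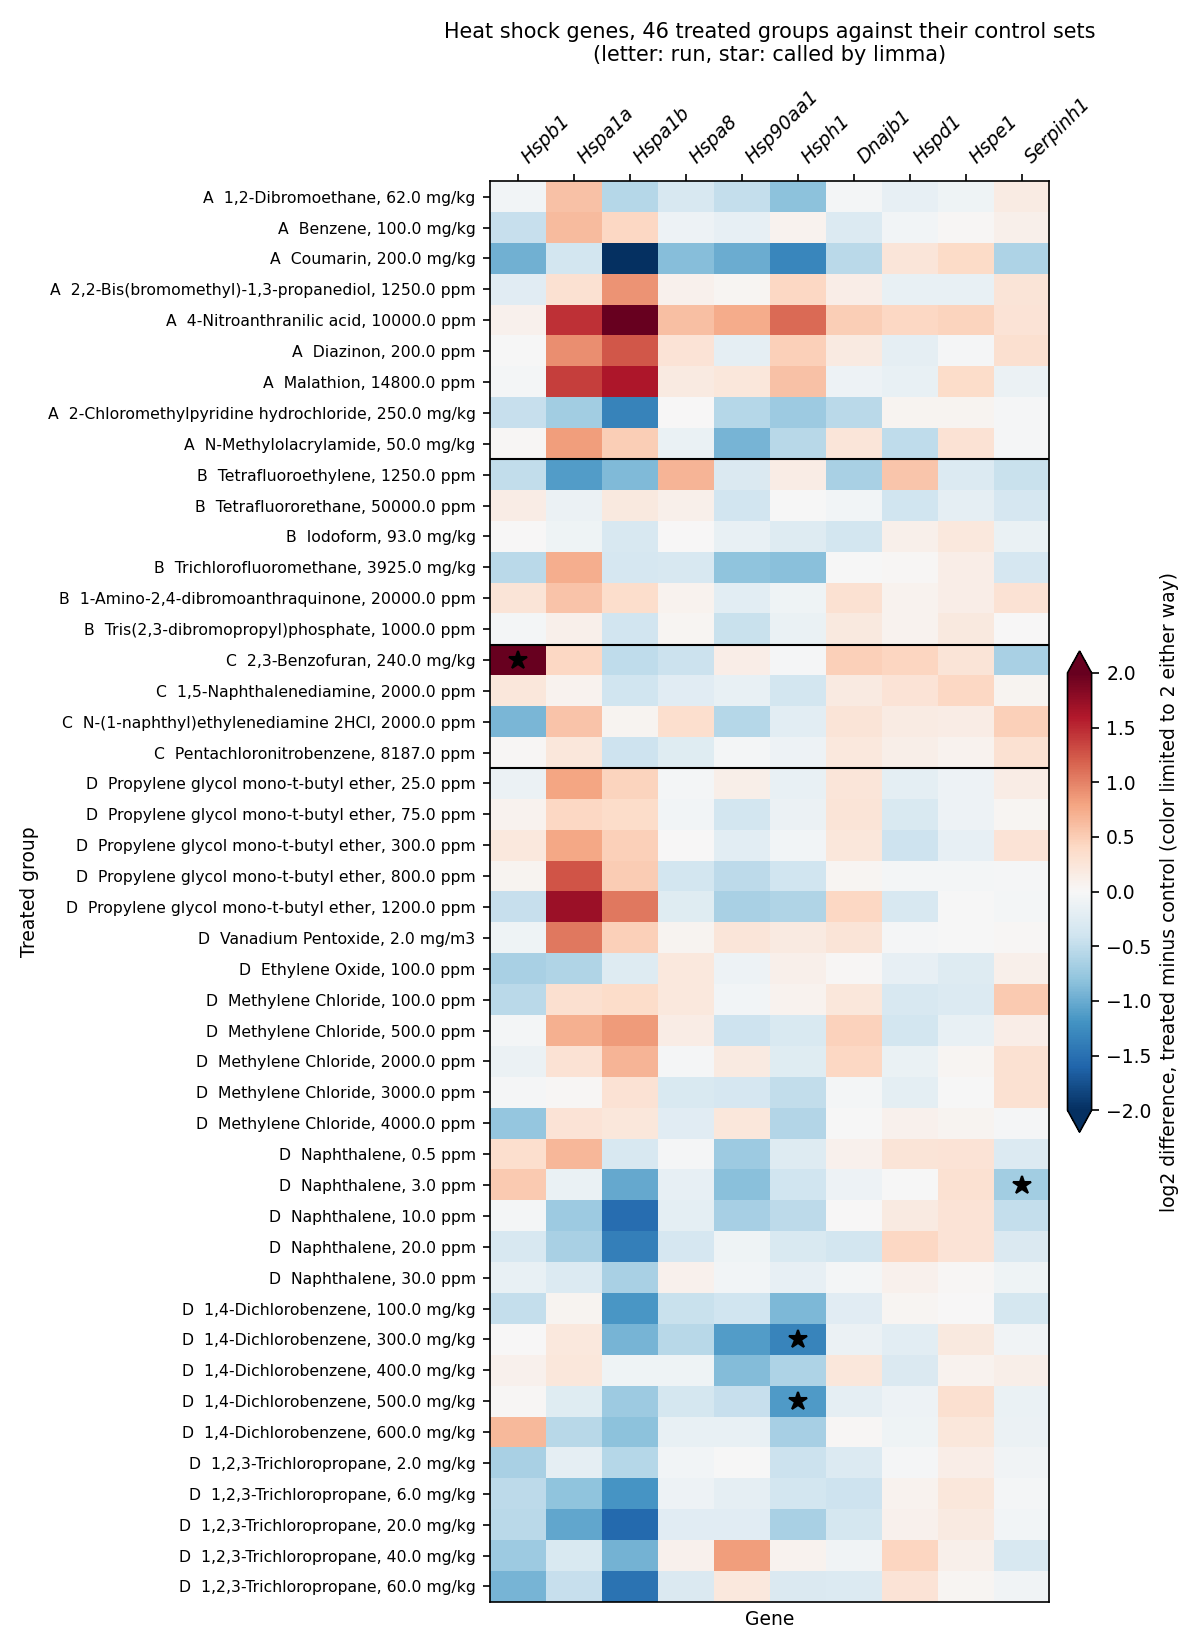
Differences of the 10 genes (columns) in the 46 treated groups (down the page; the letter is the run), as log2 of treated over vehicle, with colour limited to 2 in either direction and stars on called genes. The Hspb1 cell of 2,3-benzofuran (3.27) holds the largest difference and, like the Hspa1b cell of coumarin (−2.54), lies beyond the colour limit. The Hspa1b column has the widest range of both signs, without a star.

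The small heat shock protein Hspb1 (HSP27), which holds unfolded proteins and protects actin filaments, gave the largest change. Its signals in the 3 livers exposed to 240 mg/kg 2,3-benzofuran were 15124, 19677 and 12436, against 1697, 1686 and 1409 in the 3 corn oil livers of run C. Every exposed liver was thus several-fold above every vehicle liver, and the mean of 15746 ± 3661 against 1598 ± 163 (SD, n = 3 each) was also the highest of the 60 groups. The difference was 3.27 ± 0.21 on the log2 scale, 9.62-fold higher, with an adjusted p of 2.7e-06 by limma. In that comparison 3.28% of all genes were called, 1.35% higher and 1.92% lower. The second Hspb1 probe set gave 3.29, and the 2 probe sets followed each other over the 242 arrays (r = 0.94).

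The other run C exposures gave no Hspb1 call at the threshold used. Its signals were 982, 1128 and 1237 with N-(1-naphthyl)ethylenediamine dihydrochloride, 2893, 2752 and 1902 with 1,5-naphthalenediamine and 2564, 1624 and 2350.1 with pentachloronitrobenzene, against 1920.3, 2089 and 2337 in chow livers. The N-(1-naphthyl)ethylenediamine values all lay below the chow values, with a difference of −0.91 ± 0.21 (adjusted p = 0.060); it was called lower with dim genes left out (adjusted p = 0.021) and with 4 times the pseudocount (−0.88, 0.041), while the other pair of diets overlapped chow. The N-(1-naphthyl)ethylenediamine livers also lay apart from the chow livers in RNA integrity number (7.7 to 8.1 against 8.8 to 9.1), in the ratio of 3′ to 5′ Gapdh probe sets (−0.06 to 0.16 against −0.33 to −0.22, log2) and in array median (93.2 to 110.4 against 125 to 136). Summed signals of 2 marker lists, hepatocyte and erythroid, were higher there and those of 6 lower, without overlap; their part in the result was not tested.

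**Figure D2:**
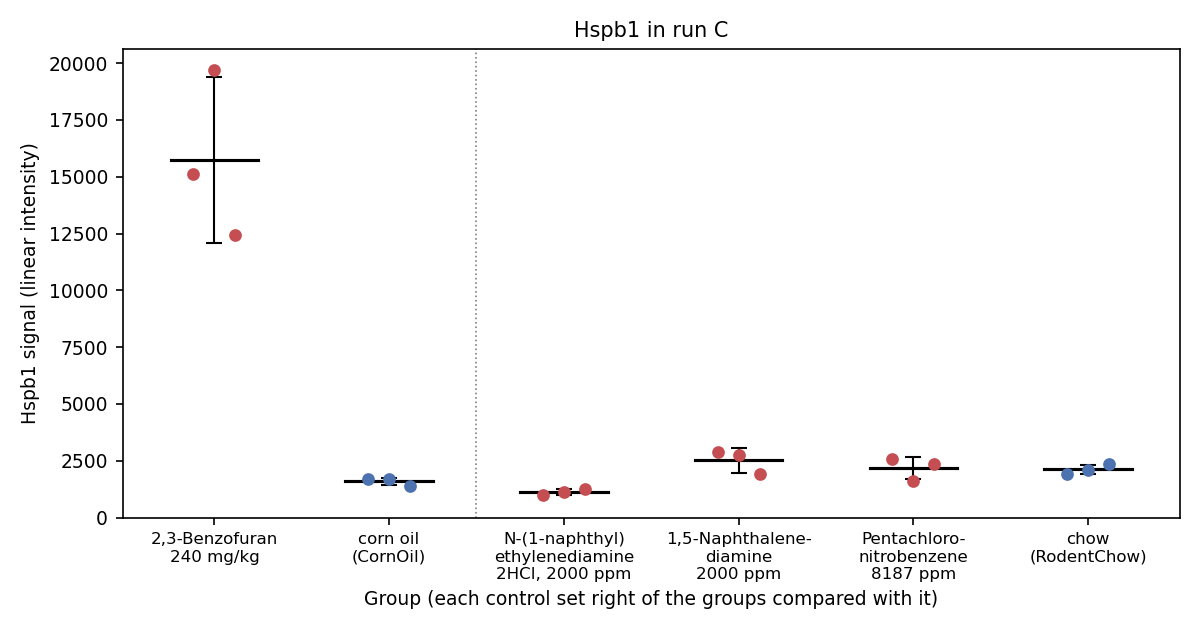
Hspb1 signal (linear intensity) in the run C livers; points are arrays, bars the mean and error bars the SD of 3 arrays, and each vehicle group stands right of its treated groups. The 2,3-benzofuran livers lie between 12436 and 19677 and all others at or below 2893.

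The remaining members had small or mixed differences in the benzofuran livers. Hspd1 (HSP60) signals were 20803, 22557 and 22003, against 16181, 15351 and 16862 with corn oil. The groups did not overlap, and the difference of 0.43 ± 0.09 had an adjusted p of 0.022 but was under 1.5-fold. Its partner Hspe1 (HSP10) had 19697, 18994 and 18229 against 12617, 15286 and 20805, which overlapped (0.25 ± 0.16, adjusted p = 0.40). A second, dimmer Hspe1 probe set was 1.08 higher with groups apart (adjusted p = 0.0041), so the 2 probe sets differed on this gene. Hspa8, the constitutive cytosolic HSP70, averaged 18533 ± 171 against 25049 ± 886, with groups apart (−0.43 ± 0.14, adjusted p = 0.11). Serpinh1 signals were 235, 298 and 282 against 528, 369 and 412, also apart (−0.64 ± 0.23, adjusted p = 0.14). Hsph1, the HSP110 nucleotide exchange factor of HSP70, differed by −0.02 with a 95% interval between −0.65 and 0.60. Its second probe set gave −0.53 with groups apart, so the probe sets differed on this gene too. Hsp90aa1 differed by 0.14 (−0.38 to 0.66). The inducible HSP70 genes had wider intervals, −1.40 to 2.23 for Hspa1a and −2.25 to 1.23 for Hspa1b, and Dnajb1, the HSP40 partner of HSP70, differed by 0.48 ± 0.30 (adjusted p = 0.39). In all, 4 of 10 members had groups apart, beside 28.7% of all genes.

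Of 31 measured genes of the wider cytosolic chaperone list, 2 were called in the benzofuran livers. Hspa4l, an HSP110 relative, was 1.21 ± 0.20 higher (1220 against 511, adjusted p = 0.0052), though not called with its second probe set (0.71, adjusted p = 0.14) or the mean of its probe sets (0.26, 0.42), and Hspa2, an HSP70 best known from testis, was 1.42 lower (55.7 against 172, adjusted p = 0.027), a call lost in 4 of the 6 fits that left out 1 liver. Hspa4l was also called with 1,5-naphthalenediamine (0.79, adjusted p = 0.044), but not with its second probe set (0.32). Of the 7 measured heat shock factors and regulators, limma called 0 of 322 tests over the 46 comparisons, beside 0.751% of all gene tests. An unadjusted p under 0.05 was found in 33, beside 10.4% of all gene tests. In the same livers the array medians were 86.8 to 88.5 against 113 to 123 with corn oil, and the median difference over all genes was −0.12. Summed signals of 9 of 11 cell marker lists were lower in the benzofuran livers without overlap, among them Kupffer cell (7745 to 11897 against 12351 to 17474), stellate cell (10394 to 13087 against 14328 to 17671), pancreas (1185 to 1455 against 3904 to 4788) and hepatocyte markers (270263 to 272998 against 282445 to 315975). No marker of these lists was at 0. Their part in the results was not tested.

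Hsph1 had a lower mean in 1,4-dichlorobenzene livers than in corn oil livers at each dose, and 2 of the 5 doses were called. The 5 corn oil livers, which all 5 doses share as their control, had signals of 3128, 2646, 3589, 2101 and 2169. At 100 mg/kg the signals were 1022, 1775, 1082 and 2094, at 300 mg/kg 1184, 1040.4, 1217 and 839.9, and at 400 mg/kg 1191, 1305, 2928 and 1967. At 500 mg/kg they were 706, 1467, 969 and 2113 and at 600 mg/kg 1135, 1423, 1939.9 and 2524. The 300 mg/kg livers formed the tightest group, and they and the 100 mg/kg livers lay wholly below the corn oil livers; the other doses overlapped them.

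The difference at 300 mg/kg was −1.32 ± 0.31, 2.49-fold lower (1070.3 ± 172, n = 4, against 2726 ± 635, n = 5, SD), with an adjusted p of 0.0063, where 2.00% of all genes were called (0.737% higher and 1.26% lower). At 500 mg/kg it was −1.13 ± 0.31, 2.19-fold lower, with an adjusted p of 0.036, where 0.803% were called (0.561% higher and 0.242% lower). The call at 500 mg/kg depended on single livers: without the 500 mg/kg liver at 706 it was −0.88 with an adjusted p of 0.23, and without the one at 969 it was −1.03 (0.17). Without the corn oil liver at 3128, 2646 or 3589 the adjusted p was 0.092, 0.062 or 0.12. The 300 mg/kg call held without any single liver, with adjusted p between 0.0053 and 0.048. The second Hsph1 probe set gave −0.82 at 300 mg/kg and −0.52 at 500 mg/kg, neither called (adjusted p = 0.19 and 0.58). At 100, 400 and 600 mg/kg it gave −0.20, −0.01 and −0.53, with groups overlapping. The first probe set was not called at 100 mg/kg (−0.90 ± 0.31, adjusted p = 0.31), 400 mg/kg (−0.62, 0.38) or 600 mg/kg (−0.66, 0.44). Its fitted trend over dose was −0.48 ± 0.27 between vehicle and top dose (adjusted p = 0.43).

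At 300 mg/kg, Hsp90aa1 and Hspa8 had lower means without being called. Hsp90aa1, the inducible cytosolic HSP90, had 7444, 4489, 2246 and 2087 against 6829, 9231, 8107, 5468 and 9452 with corn oil. One exposed liver sat among the vehicle values, and the difference was −1.11 ± 0.40 (adjusted p = 0.10), or −1.47 (adjusted p = 0.026) without that liver. Hspa8 had 12804, 16386, 25941 and 19468 against 29127, 26596, 26758, 27428 and 22760. Again 1 exposed liver overlapped, with −0.55 ± 0.19 (adjusted p = 0.076). Hspa8 was called without that liver (−0.73, 0.046) and with quantile normalisation (−0.76, 0.0090). Its other probe sets gave −0.31, 0.00 and 0.30, each with groups overlapping, so the probe sets differed on this gene. Chordc1, an HSP90 co-chaperone, was 1.11 lower (891 against 1952, adjusted p = 0.017) and was the only 1 of the 31 cytosolic chaperone genes called there. The Chordc1 call was lost with the Gapdh ratio as a covariate (−1.07, adjusted p = 0.075) and without the third or the fourth 300 mg/kg liver (0.079 and 0.095). In the endoplasmic reticulum list, 4 of 15 genes were called at this dose, all lower: Creld2 (−1.96), the HSP70 of that compartment Hspa5 (13668 against 28484, −1.03, adjusted p = 0.0014), Manf (−0.93) and Dnajb9 (−0.999). Creld2 and Hspa5 kept their calls when any single liver was left out, while Manf lost it in 2 and Dnajb9 in 4 of the 9 such fits.

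The Hspe1 differences of this series were positive at each dose (0.01 to 0.32), while the second probe set gave −0.06 at 100 mg/kg. The corn oil livers had signals of 13251, 13527, 10078, 11179 and 9630.2, and the exposed livers 11452, 12176, 11416 and 11116 at 100 mg/kg, 12273, 14681, 12757 and 12711 at 300 mg/kg and 11774, 11297, 14256 and 10998 at 400 mg/kg. They were 14157, 14737, 12906 and 15229 at 500 mg/kg and 13088, 15006, 12321 and 13233 at 600 mg/kg. All doses overlapped the vehicle range, and the fitted trend of 0.27 ± 0.08 from vehicle to top dose had an adjusted p of 0.041, below the fold needed for a call. Hspb1 had a fitted trend of 0.68 ± 0.23 (adjusted p = 0.095).

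The ratio of 3′ to 5′ Gapdh probe sets, a measure of RNA integrity, was lower in the 300 mg/kg (−0.53 to −0.48, log2) and 500 mg/kg livers (−0.59 to −0.51) than in corn oil livers (−0.41 to −0.12). Summed lymphocyte markers were higher without overlap (1360 to 3176 and 2304 to 5944, against 885 to 1294). At 500 mg/kg, summed smooth muscle markers (653 to 820.4 against 829.8 to 1889) and pancreas markers (2064 to 3069 against 4140 to 7115) were lower without overlap. With the Gapdh ratio as a covariate the Hsph1 difference at 500 mg/kg was −1.25 with an adjusted p of 0.070; the part of the cell markers was not tested.

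**Figure D3:**
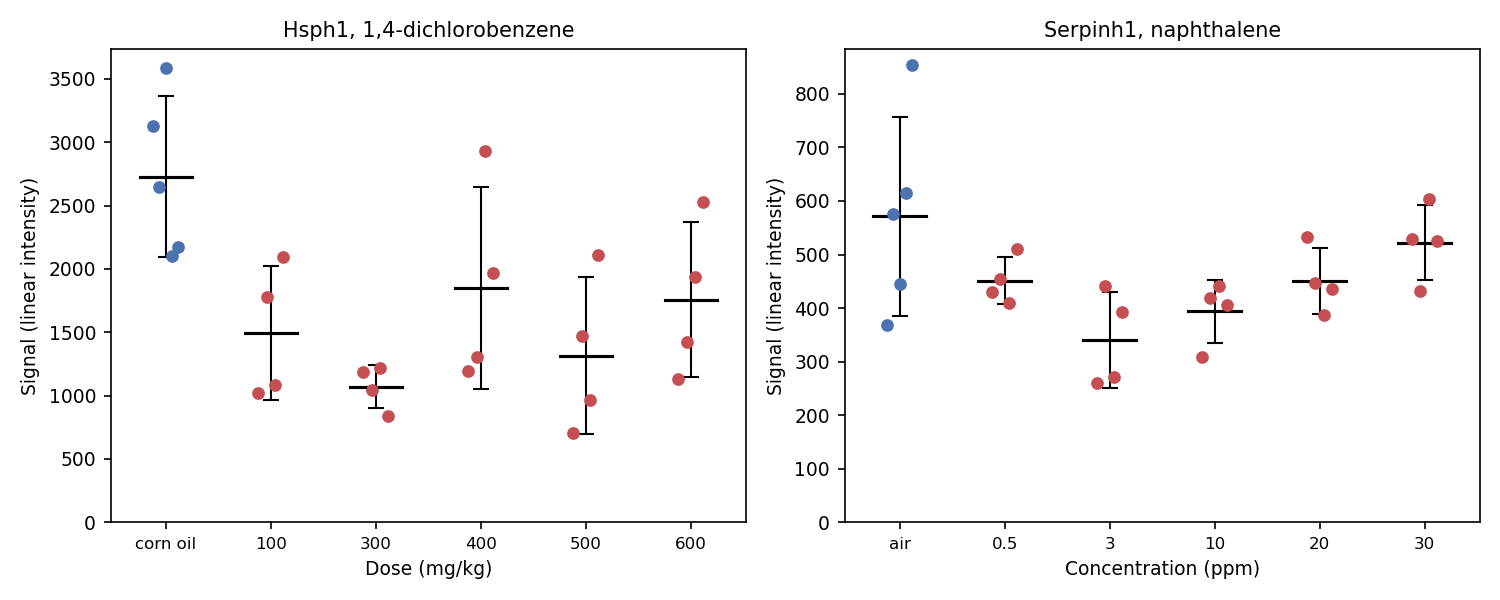
Hsph1 over 1,4-dichlorobenzene dose (left) and Serpinh1 over naphthalene concentration (right), linear signal, with vehicle at the low end; points are arrays, and bars and error bars are mean and SD of 4 or 5 arrays. Hsph1 averages 1070.3 at 300 mg/kg against 2726 with corn oil, and Serpinh1 is lowest at 3 ppm, averaging 341 against 571 in air.

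Serpinh1 (HSP47), which accompanies procollagen and is made mainly by collagen-secreting cells, was called lower at 3 ppm of naphthalene. The air livers, shared by all concentrations, had signals of 368, 575, 446, 614 and 853, and the exposed livers 430.3, 454, 409 and 510.4 at 0.5 ppm, 260.02, 441, 271 and 392 at 3 ppm and 309, 419, 442 and 405 at 10 ppm. They were 533, 448, 386 and 435 at 20 ppm and 529, 431, 603 and 524 at 30 ppm. Each concentration overlapped air, and the air livers themselves spanned more than 2-fold. The 3 ppm difference was −0.69 ± 0.19, 1.62-fold lower (341 ± 89.5, n = 4, against 571 ± 186, n = 5, SD), adjusted p = 0.015, where 4.14% of all genes were called (1.22% higher and 2.92% lower).

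That call was lost without the air liver at 853 (−0.54, adjusted p = 0.052), and without the 3 ppm liver at 260.02 or at 271 (−0.58 and −0.60, adjusted p = 0.065 and 0.083). The second Serpinh1 probe set gave −0.22 (adjusted p = 0.64). Over the whole series the fitted trend was −0.03 ± 0.17, adjusted p = 0.98. Of the 10 stellate and fibroblast markers, limma called 0 at 3 ppm, where 4 had an unadjusted p under 0.05, and their summed signal overlapped (7935 to 11132 against 6246 to 12667); Epcam (bile duct), Lyve1 (endothelial) and Myh11 (smooth muscle) were called lower. Summed hepatocyte markers were higher without overlap, 377752 to 426476 against 249936 to 325162. RNA integrity numbers were 9.2 in the 3 ppm livers against 8.5 to 8.9 in air, and array medians 76.0 to 83.5 against 86.6 to 112. The part of these in the result was not tested.

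Hspe1 had an unadjusted p under 0.05 at 4 of the 5 naphthalene concentrations, which share the same air livers. Of all genes, 19.3%, 23.2%, 13.7% and 8.56% had such a p at 0.5, 3, 10 and 20 ppm. At 3 ppm the Hspe1 signals were 16210, 15364, 15489 and 13578 against 10988, 13135, 13157, 12878 and 11559 in air. The groups did not overlap, as for 7.63% of all genes, and the difference of 0.30 ± 0.09 had an adjusted p of 0.031 at 1.23-fold, under the fold needed. The dimmer Hspe1 probe set turned the direction, −0.28 (adjusted p = 0.24). At 0.5, 10 and 20 ppm the difference was 0.28, 0.27 and 0.27.

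Coumarin gave 6 of 10 members an unadjusted p under 0.05, the most of the 46 comparisons and beside 7.96% of all genes, and no call. Hspa1b, an inducible cytosolic HSP70, had 238, 1368, 233 and 2725 with coumarin against 3251, 5311, 3931 and 4063 with corn oil. All exposed livers lay below all vehicle livers, yet they spanned more than 10-fold among themselves, and the difference of −2.54 ± 0.73 (5.83-fold lower) had an adjusted p of 0.15. Hsph1 had 912, 1619, 624 and 1874 against 1632, 3135, 3631 and 3596, overlapping, with −1.30 ± 0.36 (adjusted p = 0.12). Hspa8 had 11365, 17284, 16389 and 25010.3 against 22631, 30994, 32021 and 37340.0, overlapping by 1 liver, with −0.84 ± 0.21 (adjusted p = 0.057). Hsp90aa1 had 4609, 5194, 3315 and 3458 against 5567, 12472, 7217 and 8750.0, apart, with −0.996 ± 0.43 (adjusted p = 0.52).

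The fourth coumarin liver was the highest of its group for Hspa1b, Hsph1 and Hspa8. Without it Hspa1b (−3.21, adjusted p = 0.040), Hsph1 (−1.60, 0.041) and Hspa8 (−1.05, 0.015) were each called, and without the first corn oil liver Hspa8 was called (−0.98, 0.039). Hspa8 was also called with quantile normalisation (−0.91, 0.043), with 4 times the pseudocount (0.037) and with dim genes left out (0.025). In all, 8 of 10 members had a negative difference; the exceptions were Hspd1 (0.24) and Hspe1 (0.39). Groups were apart for 2 members and for 3.79% of all genes. The median member difference was −0.73, against 0.00 over all genes. With 0.357% of all genes called, the chaperone list gave 1, the HSP70 and HSP90 adaptor Stip1 (935 against 1904, −0.98, adjusted p = 0.047), a call lost under 5 of 12 alternatives and in 6 of the 8 fits that left out 1 liver (adjusted p 0.086 to 0.18). RNA integrity numbers were 7.2 to 7.8 in the coumarin livers against 6.6 to 7.1 with corn oil, and no cell marker list was apart.

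With 4-nitroanthranilic acid all 10 members had a positive difference, and limma called 0 of 10, with 4 at an unadjusted p under 0.05, against 0.110% and 6.38% of all genes. Hsph1 had 3044, 4603, 4308 and 4207 against 2227, 1487, 2018 and 1576 with chow, apart, with 1.14 ± 0.36 (adjusted p = 0.38). Hspa1b had 5360.1, 5547, 1516 and 2785 against 1126, 743, 993 and 559, apart, with 2.00 ± 0.73 (adjusted p = 0.52). Hspa1a had 103, 304, 58.2 and 48.5 against 10.5, 27.4, 83.7 and 9.47, which overlapped (1.46 ± 0.76, adjusted p = 0.81). The chow set FCO2 had the lowest Hspa1a mean of the 60 groups and the next-to-lowest Hspa1b mean on the log2 scale. Dnajb1, Hspd1 and Hspe1 were apart from chow too, by 0.49, 0.42 and 0.45, which made 5 members apart, beside 4.88% of all genes.

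Hspa1b, and Hspa1a where it could be read, had the widest estimates. Their coding sequences are near-identical, so RNA of either copy may bind the probes of the other, and how their signals divide is uncertain. Hspa1b differences ran between −2.54 and 2.00 over the 46 groups, 13 had an unadjusted p under 0.05, and 1 interval lay inside 2-fold. In the naphthalene series Hspa1b had 1201, 6423, 4987 and 4106 at 10 ppm against 13609, 11528, 8208, 8381 and 10548 in air, apart, with −1.53 ± 0.46 (adjusted p = 0.066), and it was called without the second 10 ppm liver (−1.81, 0.048). With 1,2,3-trichloropropane the difference was −1.56 at 20 mg/kg and −1.48 at 60 mg/kg (adjusted p = 0.25 and 0.13), and the trend was −1.28 ± 0.40 (adjusted p = 0.085). With malathion the difference was 1.62 (adjusted p = 0.22), with signals of 2817, 3493, 9823, 1407 and 907 against the same low chow set. RNA integrity numbers, recorded for 4 of the 5 malathion livers, were 4.7 to 6.5 against 6.7 to 7.2 with chow, and summed pancreas markers 1441 to 2036 against 4202 to 4917; their part in the malathion results was not tested. Hspa1a differed by 1.71 at 1200 ppm propylene glycol mono-t-butyl ether (627 ± 219, n = 4, against 245 ± 240, n = 5, SD, adjusted p = 0.19), with a trend of 1.47 ± 0.45 (adjusted p = 0.16).

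Beyond benzofuran, Hspb1 differences were not called. They were negative in 29 of 46 groups, and the low end was with coumarin (−0.96, adjusted p = 0.43), at 60 mg/kg 1,2,3-trichloropropane (−0.92, 0.081), with N-(1-naphthyl)ethylenediamine (−0.91, given above) and at 4000 ppm methylene chloride (−0.78, 0.066). With dim genes left out, the 1,2,3-trichloropropane and methylene chloride differences were called (adjusted p = 0.046 and 0.039). Its trend over 1,2,3-trichloropropane was −0.69 ± 0.23 (adjusted p = 0.11), opposite in sign to its trend over 1,4-dichlorobenzene; the difference between the 2 trends was not tested. Over the 5 dose series, 0 of 50 member trends were called by limma, 14 had an unadjusted p under 0.05, and 1.11% and 13.2% of all gene trends did so.

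Hspe1, read by 1450668_s_at, varied least and was the member with most small differences. Its within-group SD of 0.16 (log2) stood at the 3.58th percentile of 9096 brighter genes. All 46 intervals lay inside 2-fold, and 14 comparisons had an unadjusted p under 0.05, beside 10.4% of all gene tests. The dimmer Hspe1 probe set (r = 0.48 with the first) was less tightly bounded. It gave 1.08 with benzofuran, 0.71 at 4000 ppm methylene chloride and 0.68 with 1,5-naphthalenediamine, each with groups apart, and −0.28 at 3 ppm naphthalene. Hspa1a and Hspa1b were at the other end, with within-group SDs of 1.01 and 0.89 at the 99.8th and 99.6th percentiles. Hsp90aa1 (0.60, 97.4th), Hsph1 (0.50, 93.5th) and Hspb1 (0.44, 87.3th) were also variable between mice of a group. Dnajb1 (0.39), Hspd1 (0.36), Serpinh1 (0.34) and Hspa8 (0.30) lay nearer the median SD of 0.29.

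Single arrays also spanned wide ranges. Hspa1a signals ran between 4.27 and 987, Hspa1b between 233 and 23625, Hspb1 between 644 and 19677 and Hsp90aa1 between 1018 and 19985. Hspa8 ran between 10084 and 45529 and Hspe1 between 6207 and 20805. Ordered by mean, neighbouring groups nearly always overlapped: 57 of 59 neighbouring pairs for Hspb1, 58 for Hsp90aa1 and Hspd1, and 59 for each of the others. The highest group mean was that of benzofuran for Hspb1, Hsp90aa1 (14008 ± 2976) and Hspe1 (18973 ± 734), of 4-nitroanthranilic acid for Hspd1 (22162 ± 1058), and of vehicle sets for Hspa8 and Hsph1 (both CCO3) and, on the log2 scale, for Dnajb1 and Serpinh1 (both ACO1).

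The vehicle sets differed too, most widely for the inducible HSP70 genes. Between the 14 vehicle sets the log2 means spanned 3.61 for Hspa1b, 3.12 for Hspa1a, 2.20 for Hspb1 and for Hsp90aa1, 2.12 for Hsph1, 1.80 for Hspd1 and 1.09 for Hspe1. Sets of the same vehicle and run, with CCO3 taken as labelled, gave 0 of 50 member calls by limma, beside 0.0429% of all gene tests. An unadjusted p under 0.05 was found in 4, beside 7.00% of all gene tests. The largest of those 4 differences was that of Hspa1b between ACO5 and ACO3 (0.87). Outside those 4, Hspa1a differed by up to 0.98. When all pairs of vehicle sets of a run were compared, an addition made after the data were seen, 9 of 200 tests were called, and all 9 involved the air set ACO1 of run B. ACO1 over corn oil CCO4, where 28.5% of all genes were called, was higher for Hspb1 (1.22) and Serpinh1 (0.89) and lower for Hsph1 (−1.38) and Hspd1 (−1.54). ACO1 over chow FCO1, with 12.9% called, was higher for Hspb1 and Serpinh1 (0.87 and 0.79) and lower for Hspa8, Hsph1 and Hspd1 (−0.82, −1.25 and −1.17).

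The livers of ACO1 differed widely among themselves. Hspd1 signals there were 4690, 2855, 3007 and 13957, against 9850.2, 8884, 14692 and 11257 in FCO1, and Hspa8 signals were 11548, 10084, 13554 and 38431 against 27583, 26518, 26162 and 31054. In each gene the fourth air liver was as high as the other vehicle sets and the other 3 were low. Tetrafluoroethylene and tetrafluororethane were compared with this set, and neither gave a member call by limma, with 3 and 0 members at an unadjusted p under 0.05 (for tetrafluoroethylene, 10.6% of all genes).

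**Figure D4:**
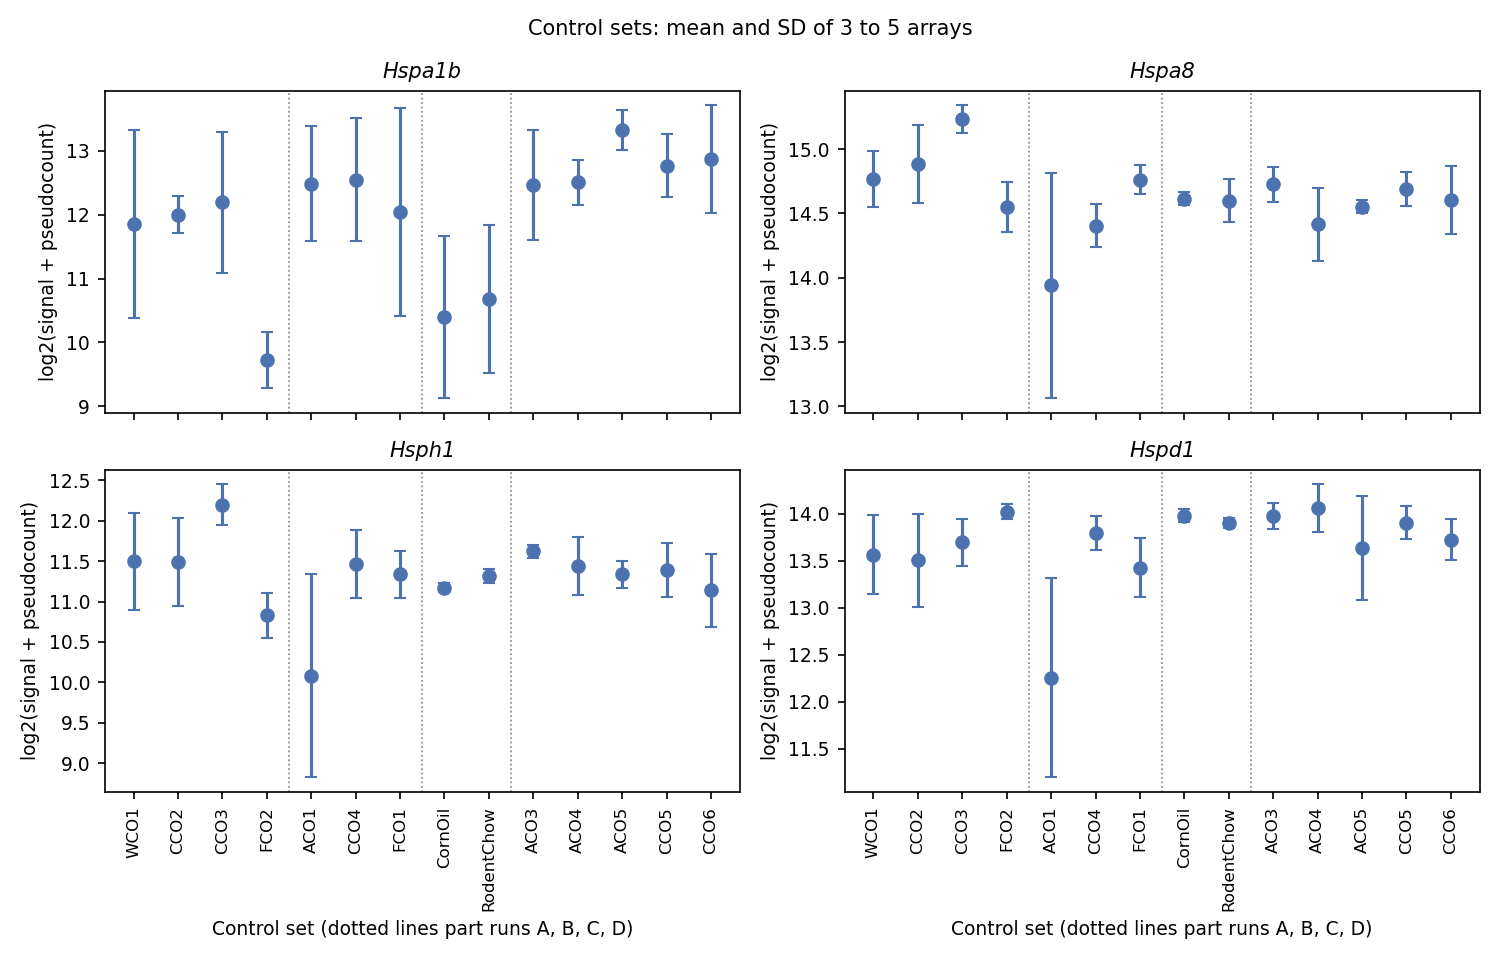
Mean and SD of log2(signal + 17.3) of Hspa1b, Hspa8, Hsph1 and Hspd1 in the 14 vehicle sets of 3 to 5 arrays, with dotted lines between runs. Hspa1b spans 3.61 on the log2 scale between FCO2 and ACO5, and ACO1 is the lowest set for Hspa8, Hsph1 and Hspd1.

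Between mice of the same group the members fell into pairs and trios that varied together. With each value taken minus its group mean, over 242 arrays, Hspa8 and Hsph1 had r = 0.80 (Spearman's rho = 0.79), with 0.78, 0.88, 0.75 and 0.77 in runs A to D. Hspa1a, Hspa1b and Dnajb1 correlated with each other at r = 0.72 to 0.73 (rho = 0.70 to 0.75), and within runs at 0.58 to 0.89. Hsp90aa1 and Hspd1 had r = 0.75 (rho = 0.71), but 0.16 in run C against 0.71 to 0.83 in the others, and −0.05 once the first axis of variation between mice, described below, was removed. Hsp90aa1 and Hsph1 had r = 0.62 (rho = 0.60), and 0.55 to 0.91 within runs. Each of these 6 had a permutation p of 1e-05 for r, the smallest that 100000 resamples can give, or 3.7e-05 adjusted over the 45 pairs, and without the 2 outermost arrays r stayed between 0.62 and 0.77.

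Other pairs were weak. Of the 45, 21 had an adjusted permutation p under 0.05 for r, 6 had r above 0.5 and 13 were negative. The median r was 0.11. Such counts for pairs of other genes are not given here, so these are not read as particular to the members. Hspd1 and Hspe1, which share a promoter region, had r = 0.17 (rho = 0.24; adjusted permutation p = 0.16 and 0.0036), and within runs −0.19, 0.58, 0.16 and 0.24. Hspd1 and Serpinh1 had r = −0.34 (rho = −0.38), and −0.29, −0.36, −0.05 and −0.43 within runs A to D. One axis held 27.9% of the within-group variance of 9096 brighter genes, against 4.44% on the next, and it correlated with Hspd1 (r = 0.91), Hsp90aa1 (0.84) and Hsph1 (0.42). With it removed, Hsp90aa1 and Hspd1 had r = −0.05, against 0.75 before, and Hspd1 and Hspe1 had 0.47, against 0.17. Hspa8 and Hsph1 (0.80), Hsp90aa1 and Hsph1 (0.54) and the trio of Hspa1a, Hspa1b and Dnajb1 (0.71 to 0.73) changed less. The members share arrays and depth of labelling, and their part in these correlations was not tested.

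**Figure D5:**
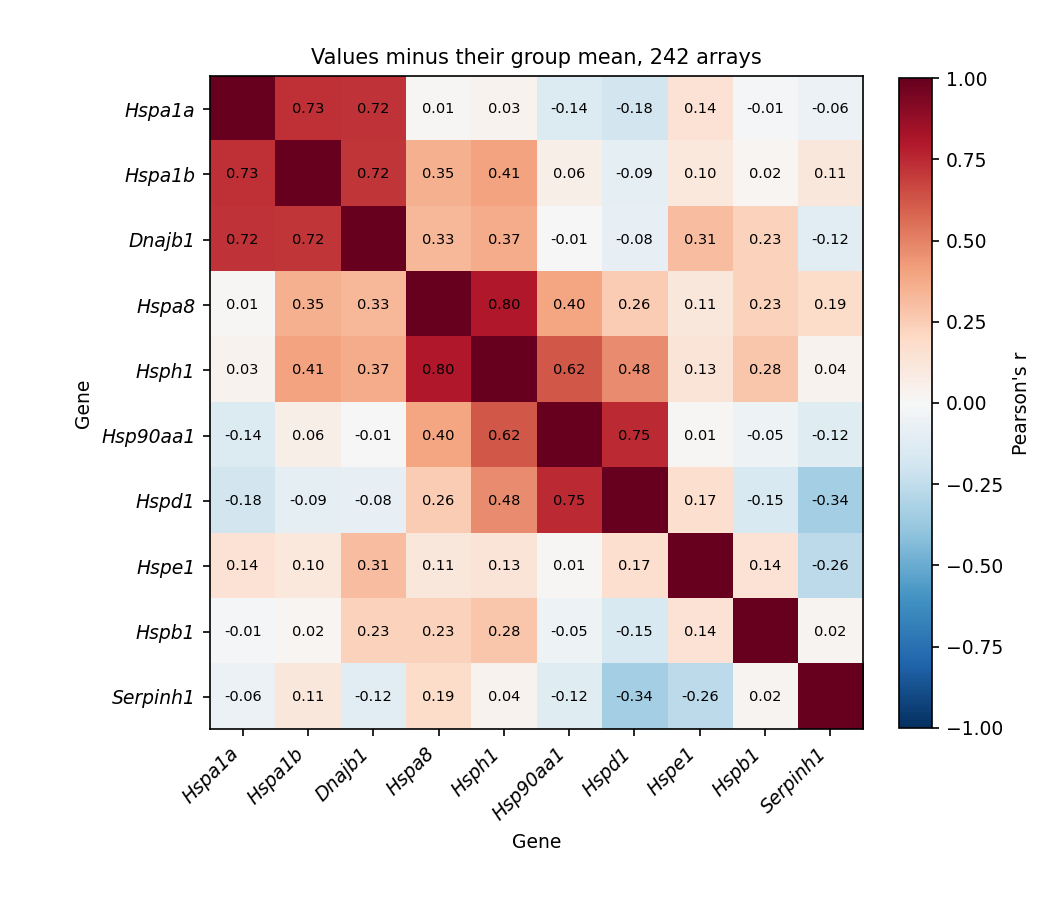
Pearson's r between the 10 genes over 242 arrays, each value minus its group mean; colour runs between −1 and 1 and numbers give r. Blocks of high r join Hspa1a, Hspa1b and Dnajb1, and Hspa8, Hsph1, Hsp90aa1 and Hspd1 in a chain (0.80, 0.62 and 0.75, the last of them −0.05 with the first axis removed).

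The brighter genes most like each member over these arrays were as follows. Bag3, an HSP70 co-chaperone, was closest to Dnajb1 (r = 0.74) and followed Hspa1b and Dnajb1 as the gene most like Hspa1a (0.69). Chordc1 followed Hsph1 (0.80) and Hspa8 (0.58), and Atp2a2, the calcium pump of the endoplasmic reticulum, stood beside them (0.76 and 0.66). Hsp90aa1 was closest to Cacybp (0.90), Dnaja1 (0.89) and Hsp90b1 (0.88), with 0.66, 0.85 and 0.17 in the 18 arrays of run C. Hspd1 was closest to Rmnd5a (0.92), Dpp4 (0.91) and Ngly1 (0.91), none of them a chaperone. In run C these had 0.29, 0.02 and 0.31, and with quantile normalisation they ranked 7, 15 and 5. Hspd1 and Hsp90aa1 followed the first axis most closely (0.91 and 0.84), and its part in these likenesses was not tested. Hspe1 was closest to Lap3, Akr1c6 and Ndufb3 (0.60 to 0.58), Hspb1 to Zfpm1, Tmem82 and Rbm42 (0.59 to 0.58) and Serpinh1 to Vim, Ube2l6 and Tuba1a (0.52 to 0.50). In run C these r lay between −0.15 and 0.60 for Hspe1, −0.18 and 0.33 for Hspb1 and −0.32 and 0.41 for Serpinh1. The lowest r with Hspa8 and with Hsph1 was that of Cirbp, the cold-inducible RNA-binding protein (−0.68 each).

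The lists of related genes were described by their calls. The wider cytosolic chaperone list gave 5 calls higher and 6 lower in 1426 tests (0.771%), beside 0.751% of all gene tests. With malathion, where 4.37% of all genes were called, the small heat shock protein Hspb6 (0.73) and the HSP70-bound ubiquitin ligase Stub1 (0.65) were higher, in livers of lower RNA integrity number, as given above. With 1,2,3-trichloropropane at 60 mg/kg, Hspb8 (−0.72) and the HSP40 gene Dnaja4 (−0.80) were lower. The cytosolic chaperonin and prefoldin list had 4 calls of 598 tests, all higher: Cct3 with malathion (0.78), Cct2 with tetrafluoroethylene (0.80), and Pfdn2 at 100 mg/kg 1,4-dichlorobenzene (0.67) and at 4000 ppm methylene chloride (0.70). For Cct2, whose groups overlapped, and Pfdn2 at 100 mg/kg, limma's adjusted p was 0.0497 and 0.0498. Both calls were lost under 5 of 11 alternatives, and that of Pfdn2 in 8 of 9 fits that left out 1 liver. The mitochondrial list gave 3 higher and 2 lower of 460, among them the mitochondrial HSP70 Hspa9 at 40 mg/kg 1,2,3-trichloropropane (0.64) and the protease subunit Clpx, which was higher with benzofuran (0.88, adjusted p = 0.049, lost under 7 of 11 alternatives and in 5 of 6 fits that left out 1 liver) and lower at 4000 ppm methylene chloride (−0.86). The endoplasmic reticulum list had the highest share of the 4 chaperone lists, with 5 higher and 9 lower of 690 (2.03%), and 4 of the 9 were those at 300 mg/kg 1,4-dichlorobenzene. Of 43 calls of list genes tried under the alternatives, 38 were lost when each fit held only the groups compared, and 33 under another alternative.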

How the data were processed

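The authors deposited 1 linear intensity (signal) per probe set and array, a probe set being the set of oligonucleotides that report 1 transcript. Per the submitters' processing notes the values come from GCOS 1.0; its algorithm and settings are not given in the sources used here. Of 45101 probe sets, 34945 had a single gene symbol in the platform annotation (10092 had none or several and 64 were controls), which gave 18193 genes; for the 9010 genes with several, the probe set with the highest mean was used. The deposited values of 240 arrays had a trimmed mean of 500 (2% trimmed at each end); the other 2 were rescaled to it. Before log2, 17.3 was added to the deposited signal; this pseudocount is the typical (median) 20th percentile of an array.

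Group means were fitted per run with limma 3.58.1 in R 4.3.3 (lmFit, contrasts.fit, eBayes), with the run code as a block in run A, and two-sided p-values were adjusted over all genes of a comparison (Benjamini-Hochberg). Trends were linear over dose rank. Correlations used scipy 1.17.1 in Python 3.11.15, with tables in pandas 2.3.3 and numpy 2.4.6 and figures in matplotlib 3.10.9. The fits were tested on simulated data. The number of arrays limits the precision.

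The members and gene lists were chosen with earlier results of these data known. Named were the 10 members in every comparison, with every array's value where called, up to 4 called genes of lowest adjusted p per list and comparison, and the 3 genes most correlated with each member. Some arrays shown beside those were chosen after their values were seen. Alternatives were the normalisation, the rescaling, the pseudocount, a filter on dim genes, the probe set, the arrays in the fit, pooled vehicle sets, the run code block, the Gapdh ratio, the dose scale, and leaving out 1 array at a time (78 arrays).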

Additional observations from a re-analysis of the deposited data

Results flagged for a closer look

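Of the sets of 4 to 10 arrays (1 member in 1 group) given in the text, 29 were tested and the others were not. Of the 29, 0 had an array farther from the others than Dixon's 95% limit. Chance alone gives about 1 in 20.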

How the results depend on the processing

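The 4 member calls became 2 with values as deposited (0.435%, against 0.475% of all gene tests). They became 9 with dim genes left out before adjustment (fewer genes tested, 1.97% against 1.64%). When each fit held only the arrays of the groups compared (fewer samples), 1 was left, Hspb1 with benzofuran (0.217% against 0.103%). The other alternatives gave 3 to 6, where 0.539% to 0.936% of all gene tests were called. Leaving out 1 array, done for 78 arrays, gave between 3 and 7 calls, 7 without the fourth coumarin liver. Hspb1 with benzofuran was called under all 11 alternatives (log2 difference 3.23 to 3.29, adjusted p 2.6e-07 to 0.013) and without any single array (3.09 to 3.42). Hsph1 at 300 mg/kg 1,4-dichlorobenzene was lost with the second probe set (−0.82) and with only the groups compared (adjusted p = 0.070). Hsph1 at 500 mg/kg and Serpinh1 at 3 ppm naphthalene were each lost under 5 alternatives, both of them with values as deposited (adjusted p = 0.094 and 0.064). For Hspd1 with benzofuran the adjusted p was 1.00 with values as deposited, where 1 array of run C was not rescaled. Of the member differences tried singly, that of Hspe1 at 3 ppm naphthalene was the only difference to turn, −0.28 with its second probe set. Small differences not tried singly could also turn. Serpinh1 with 1,5-naphthalenediamine was 0.06 with the first and −0.32 with the second probe set.

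Member trends, 0 called, became 1 with dim genes left out (Hspa1b over 1,2,3-trichloropropane) and 2 over the dosed groups alone (Hspb1 over 1,4-dichlorobenzene, 0.90, and over naphthalene, −0.73). Leaving out 1 array gave 0 or 1 (1 without the first corn oil liver of CCO5). Shares of all gene trends under these alternatives are not given here, so the counts are not read as particular to the members. Calls between vehicle sets, 0 for the same vehicle and run, were 9 over all pairs of a run. All 9 set ACO1 against CCO4 or FCO1, where 28.5% and 12.9% of all genes were called. The 69 calls of the pathway lists became 7 with only the groups compared, were 46 to 90 under the others and 60 to 81 without single arrays. Of all gene tests, 0.751% were called in the main fits, 0.103% with only the groups compared and 0.475% to 1.64% under the others. Of the 43 calls of list genes tried singly, 2 were lost under none of the alternatives and 2 turned direction with the second probe set, Arntl at 3000 and 4000 ppm methylene chloride (0.31 and 0.58). The median r between members, 0.11, was 0.17 in run A alone and 0.20 in run B alone. The cause of the changes was otherwise not tested. No paired analysis was possible because the labels number animals, and treated and vehicle groups share no replicate numbers. Of 46 intervals, 0 lay inside 2-fold for Hspa1a, the dimmest member (median signal 193), and 1 for the brighter Hspa1b (4814).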

Other observations

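Genes known to follow the time of day, body temperature and stress hormones were also listed. The circadian clock list gave 11 calls higher and 7 lower in 690 tests (2.61%, beside 0.751% of all gene tests), and most fell in the methylene chloride livers, whose air control they share. At 4000 ppm, where 2.92% of all genes were called, the clock output gene Dbp averaged 4702 against 169 (4.48 higher on the log2 scale), and the activators Npas2 (21.1 against 256, −3.06) and Arntl (391 against 1236, −2.05) were lower. At 3000 ppm the same 3 genes differed by 2.68, −0.92 and −1.01. The second probe sets gave smaller Npas2 differences (−1.44 and −0.28) and turned Arntl (0.58 and 0.31), so the direction of Arntl depended on the probe set. In the benzofuran livers Per3 (55.8 against 487, −2.67) and Cry2 (467 against 861, −0.85) were lower; Per3 was −1.31 (adjusted p = 0.22) with its second probe set, and the Per3 and Cry2 calls were lost in 5 and 4 of the 6 fits that left out 1 liver. The hour at which each liver was taken is not given in the labels. No member was called at 3000 or 4000 ppm methylene chloride by limma, where 0 and 1 members had an unadjusted p under 0.05.

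The glucocorticoid response list gave 8 calls higher and 2 lower in 368 tests (2.72%). The 2 lower calls were Fkbp5 (−1.15) and Mt1 (−1.67), both with malathion. The metallothionein Mt2 was higher at 300, 500 and 600 mg/kg 1,4-dichlorobenzene (24166, 23915 and 18674, against 4194 with corn oil) and at 60 mg/kg 1,2,3-trichloropropane (16834 against 3903). The Mt2 call at 600 mg/kg was lost in 4 of the 9 fits that left out 1 liver. Tsc22d3, induced by glucocorticoids, was higher at 100, 300 and 400 mg/kg 1,4-dichlorobenzene (5427, 4455 and 5017, against 2533). The Tsc22d3 calls were lost in 5, 5 and 3 of the 9 fits that left out 1 liver. The immediate early list gave 4 higher and 2 lower in 460 tests, among them Junb, which was lower with benzofuran (283 against 812) and higher at 3000 ppm methylene chloride (727 against 294). The Junb call with benzofuran was lost in 5 of the 6 fits that left out 1 liver. Cirbp was called once, higher with malathion (429 against 170.5, 1.22, adjusted p = 0.049), and the call was lost under 6 of 13 alternatives; RNA integrity numbers were 4.7 to 6.5 in those livers against 6.7 to 7.2 with chow.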
